A study of Mus musculus with 6 samples.

Results

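The 9 genes that write, read and remove cytosine methylation in mouse were followed in the forebrain of *Slc13a4*+/- mice and of wild-type (WT) mice at postnatal day 20 (P20). They are the TET dioxygenase genes *Tet1*, *Tet2* and *Tet3*, the DNA methyltransferase genes *Dnmt1*, *Dnmt3a* and *Dnmt3b*, and *Uhrf1*, *Mbd2* and *Mbd3*, whose proteins bind methylated DNA or belong to complexes built around such proteins. They were taken by gene symbol and make up 9 of the 35523 genes measured. The family itself was chosen on earlier results of these data, the difference of *Tet2* between the genotypes included, so its values between genotypes are given as a description. Counts of its genes past a threshold stand beside the share of all genes past it, and nothing is read from them. RNA came from the whole forebrain of 3 *Slc13a4*+/- mice (genotype label Nas2Del +/- Het, mice Nas2Del_Het_1024, Nas2Del_Het_1025 and Nas2Del_Het_1027) and 3 WT mice (Nas2Del_WT_1016, Nas2Del_WT_1018 and Nas2Del_WT_1026), all of strain C57BL/6, and values of single mice are given in this order. *Slc13a4* encodes a sulfate transporter of the plasma membrane, and the heterozygous mice carry 1 intact allele. Heterozygous males were crossed to wild-type females, but neither the litter nor the sex of each mouse is given in the sources used here. Stranded, rRNA-depleted libraries were quantified per transcript by the authors, and each value is an average over all cells of the tissue. In bulk tissue, fewer cells of a type and less RNA per cell cannot be told apart.

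Methyl groups are placed on cytosines of CpG pairs by DNMT3A and DNMT3B, and DNMT1 copies the pattern onto the new strand after replication, guided there by UHRF1. The TET enzymes oxidise methylcytosine to hydroxymethylcytosine and further products, which base excision repair can replace with plain cytosine. In the maturing brain, neurons gain both hydroxymethylcytosine and DNMT3A-dependent methylation outside CpG pairs during the first postnatal weeks. MBD2 and MBD3 are alternative subunits of the nucleosome remodelling and deacetylase complex NuRD. MBD2 binds methylated CpG strongly, whereas mammalian MBD3 has little preference for it.

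The annotated transcripts of these genes differ in coding stretches, and some of those that the results on transcripts name are shown here. In *Tet3* such a stretch codes for a zinc finger that binds DNA. What the other differing stretches do was not examined. TET1 binds CpG-rich DNA through a CXXC zinc finger, *Tet2* has lost this domain to the neighbouring gene *Cxxc4*, and *Tet3* codes for it in some of its transcripts. Coding sequences were searched, on the coding strand and in frame, for the cysteine codon motif of this finger (cysteine, glycine, any codon, cysteine, any 2 codons, cysteine). Transcripts Tet1-206 and Tet1-201 held 2 such motifs, at codons 574 and 586, and Tet3-203 held 2, at codons 57 and 69. Tet2-201, Tet2-204 and Tet3-202 held 0. Of 53335 mouse coding sequences that begin with ATG, 0.0975% held at least 2. Sequences are from GENCODE M21 transcripts on GRCm38, 5′ to 3′ on the minus strand. In the first pair, capitals mark the cysteine codons of the motifs, in chr10:62878194-62878307 for *Tet1* and chr6:83454783-83454896 for *Tet3*.
Tet1-206: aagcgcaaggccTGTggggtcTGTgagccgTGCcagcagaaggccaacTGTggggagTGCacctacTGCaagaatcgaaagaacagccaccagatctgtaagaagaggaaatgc
Tet3-203: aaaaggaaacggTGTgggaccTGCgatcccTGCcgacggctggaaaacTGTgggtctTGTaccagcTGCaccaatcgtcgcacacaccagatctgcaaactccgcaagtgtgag
The *Tet3* stretch lies in coding bases chr6:83454750-83455052 that Tet3-203 has and Tet3-202 lacks. A second set shows stretches that separate pairs of coding transcripts of the same gene. Capitals mark the 24 bases (chr3:133479342-133479365) that Tet2-204 has and Tet2-201 lacks, between flanks that both share.
Tet2-204: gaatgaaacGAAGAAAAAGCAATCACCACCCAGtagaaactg
The next are 96 bases (chr10:62818939-62819034) of Tet1-206 that Tet1-201 lacks, and 96 bases (chr10:80399122-80399217) of Mbd3-201 that Mbd3-204 lacks, with no capitals.
Tet1-206 only: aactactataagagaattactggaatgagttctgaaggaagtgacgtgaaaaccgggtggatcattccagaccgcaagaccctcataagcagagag
Mbd3-201 only: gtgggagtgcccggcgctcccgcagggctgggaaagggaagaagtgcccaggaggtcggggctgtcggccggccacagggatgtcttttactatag
The last is the first coding exon of Dnmt1-201 (chr9:20952708-20952787), absent from Dnmt1-202, with its start codon in capitals.
Dnmt1-201: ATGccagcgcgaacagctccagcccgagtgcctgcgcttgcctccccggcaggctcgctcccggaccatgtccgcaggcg

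The estimated counts summed to 60340337 to 80410582 per mouse. Identifiers placed 115973 of 117135 transcripts in genes, and 17096 genes passed the filter on low counts of edgeR's quasi-likelihood test, all 9 among them. *Slc13a4* itself had 5.60, 6.57 and 5.42 CPM (counts per 1000000 counts of the mouse after TMM normalization) in the *Slc13a4*+/- mice, against 10.4, 9.36 and 8.23 CPM in the WT mice, and so went with the labels. The Y-linked gene *Ddx3y* had 105 CPM in WT mouse Nas2Del_WT_1016 and at most 0.033 CPM in each of the other 5 mice. By this gene Nas2Del_WT_1016 alone reads as male, so sex was not balanced between the genotypes. The part of sex in the values below was not tested. WT mouse Nas2Del_WT_1026 stood apart from its group. Its median absolute log2 difference over genes was 0.11 from each of the other WT mice, which differed by 0.08 from each other. It lay nearer to the 3 *Slc13a4*+/- mice, at 0.088, 0.090 and 0.085. Forebrain neuron markers summed to 3373 to 3485 CPM in *Slc13a4*+/- mice and 3357 to 3541 CPM in WT mice. Of 7 hindbrain genes, 4 were too low to test. The 3 tested summed to 2.30 to 3.44 CPM in *Slc13a4*+/- mice and 2.26 to 3.24 CPM in WT mice. Summed markers of 4 other cell types were lower in every *Slc13a4*+/- mouse than in any WT mouse. How often sums of other lists were apart was not computed, so nothing is read from this. Gene by gene, this held in 1 of 5 astrocyte, 2 of 5 microglia, 4 of 4 endothelial and 2 of 5 choroid plexus markers, beside 7.7% of all genes tested. Of those 17096 genes, 8924 had a log2 fold change below 0. Astrocyte markers summed to 1201 to 1250 CPM in *Slc13a4*+/- mice and 1279 to 1292 CPM in WT mice, with log2 fold changes below 0 in 4 of 5 genes. The remaining gene, *Aldh1l1*, went the other way without overlap. It had 73.49, 69.58 and 69.09 CPM in *Slc13a4*+/- mice, against 68.37, 64.74 and 69.06 CPM in WT mice. Microglia markers summed to 247 to 256 CPM in *Slc13a4*+/- mice and 265 to 269 CPM in WT mice, below 0 in 5 of 5. Endothelial markers summed to 158 to 166 CPM in *Slc13a4*+/- mice and 178 to 184 CPM in WT mice (below 0 in 4 of 4), and choroid plexus markers to 384 to 447 CPM in *Slc13a4*+/- mice and 464 to 471 CPM in WT mice (below 0 in 5 of 5). Most of the choroid plexus sum was *Ttr*, at 353 to 412 CPM in *Slc13a4*+/- mice and 430 to 437 CPM in WT mice. *Slc4a5* was also apart, while *Folr1*, *Kl* and *Clic6* overlapped. Oligodendrocyte markers, at 7376 to 8605 CPM in *Slc13a4*+/- mice and 8375 to 9358 CPM in WT mice (below 0 in 5 of 5), and blood genes, at 420 to 519 CPM in *Slc13a4*+/- mice and 393 to 653 CPM in WT mice (below 0 in 3 of 3), overlapped. The part of these cell types in the values below was not tested.

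The 9 genes spanned a wide range of levels. On the TPM scale (transcripts per 1000000 transcripts, which corrects for length and so allows genes to be compared), *Dnmt3a* was highest at 70.7 ± 4.04 TPM (SD, n = 6 mice of both genotypes), above 83.3% of the genes tested. *Mbd2* (55.2 ± 1.76 TPM) and *Mbd3* (54.2 ± 2.57 TPM) followed. *Mbd2* exceeded *Mbd3* in 4 of 6 mice and their ranges overlapped, so this order does not hold beyond the spread. *Dnmt1* had 33.4 ± 2.15 TPM, below *Mbd3* in all 6 mice. The TET genes came next, with *Tet1* at 24.2 ± 2.54 TPM, *Tet3* at 18.1 ± 1.86 TPM and *Tet2* at 14.0 ± 1.58 TPM. *Tet1* exceeded *Tet3* in 6 of 6 mice and *Tet3* exceeded *Tet2* in 5 of 6, although the ranges of both pairs overlapped across mice. *Uhrf1* (1.14 ± 0.143 TPM) and *Dnmt3b* (0.437 ± 0.239 TPM) lay far below the rest, above 16.0% and 8.18% of the genes tested.

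**Figure D1:**
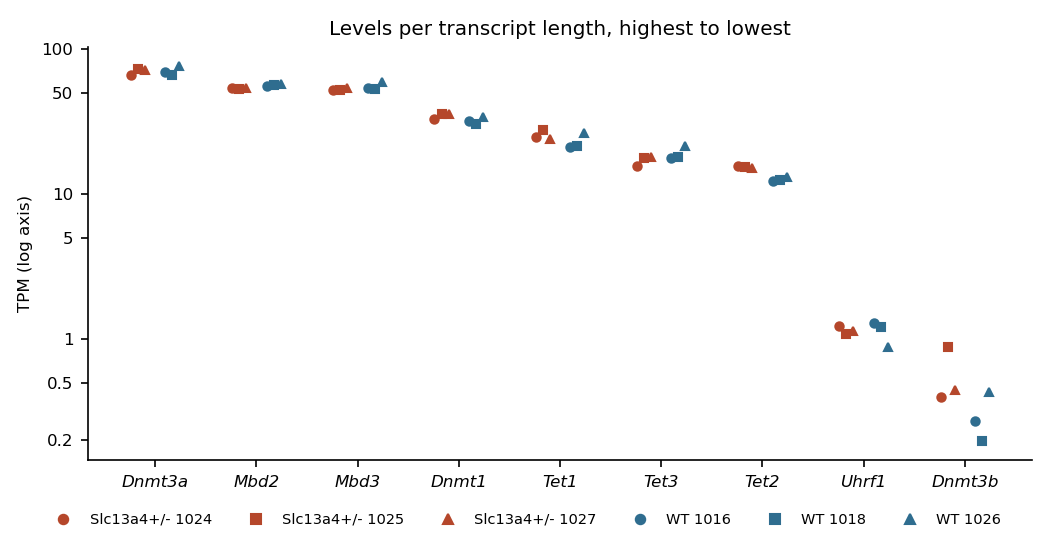
TPM of each gene (log y axis) in each of the 6 mice, with genes ordered along the x axis from highest to lowest mean and *Slc13a4*+/- mice left of WT mice. *Dnmt3a* sits at the top at 66.1 to 76.9 TPM, and *Uhrf1* and *Dnmt3b* lie at or below 1.28 TPM in every mouse.

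The genes at the bottom of this order were *Uhrf1* and *Dnmt3b*. *Uhrf1*, needed where cells copy DNA, had 97 to 137 estimated counts per mouse, and *Dnmt3b*, the de novo enzyme of early development, had 23 to 60. Of 9 marker genes of dividing cells all were measured, and their summed level was 34.5 to 36.6 CPM in *Slc13a4*+/- mice and 32.8 to 35.6 CPM in WT mice, which overlapped. None of the 9 markers exceeded the 7.62 CPM of *Tyms* in any mouse. *Dnmt1*, the maintenance enzyme, did not share the low level of *Uhrf1* and *Dnmt3b* and stood above 66.8% of the genes tested. Whether those low levels go with the number of dividing cells was not tested.

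Among the TET genes, *Tet2* was slightly higher and *Tet3* slightly lower in the *Slc13a4*+/- forebrain, and *Tet1* overlapped. *Tet2* (ENSMUSG00000040943, chr3:133463679-133545139, minus strand) had 47.5, 51.9 and 49.0 CPM in *Slc13a4*+/- mice, against 41.9, 42.0 and 47.3 CPM in WT mice. All 3 *Slc13a4*+/- values lay above all 3 WT values, but only 0.15 CPM parted *Slc13a4*+/- mouse Nas2Del_Het_1024 from WT mouse Nas2Del_WT_1026. The log2 fold change in edgeR was 0.18 (SE 0.06). On the TPM scale *Tet2* had 15.4 ± 0.365 in *Slc13a4*+/- mice and 12.6 ± 0.411 in WT mice (SD, n = 3 each), and those groups were also apart. In mouse Nas2Del_Het_1024, 1.73 TPM of this came from the short transcript Tet2-205. Full-length coding transcripts overlapped in TPM, at 9.68, 10.5 and 10.1 in *Slc13a4*+/- mice and 8.69, 8.41 and 9.87 in WT mice.

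*Tet3* (ENSMUSG00000034832, chr6:83362373-83459084, minus strand), whose enzyme acts in the zygote and in neurons, had 74.1, 80.3 and 82.2 CPM in *Slc13a4*+/- mice, against 85.2, 85.6 and 101 CPM in WT mice. Every *Slc13a4*+/- value lay below every WT value, and WT mouse Nas2Del_WT_1026 was the highest of the 6. The log2 fold change was -0.20 (SE 0.07), or -0.11 without WT mouse Nas2Del_WT_1026. In TPM the groups overlapped, at 17.1 ± 1.28 in *Slc13a4*+/- mice and 19.0 ± 2.06 in WT mice (SD, n = 3 each). *Tet1* (ENSMUSG00000047146, chr10:62804570-62908996, minus strand), the TET gene best known from embryonic stem cells, had 54.0, 59.3 and 57.6 CPM in *Slc13a4*+/- mice, against 50.3, 51.4 and 61.9 CPM in WT mice. WT mouse Nas2Del_WT_1026 had the highest value and the other WT mice the lowest, so the groups overlapped. The log2 fold change was 0.06 (SE 0.08), or 0.16 without WT mouse Nas2Del_WT_1026.

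**Figure D2:**
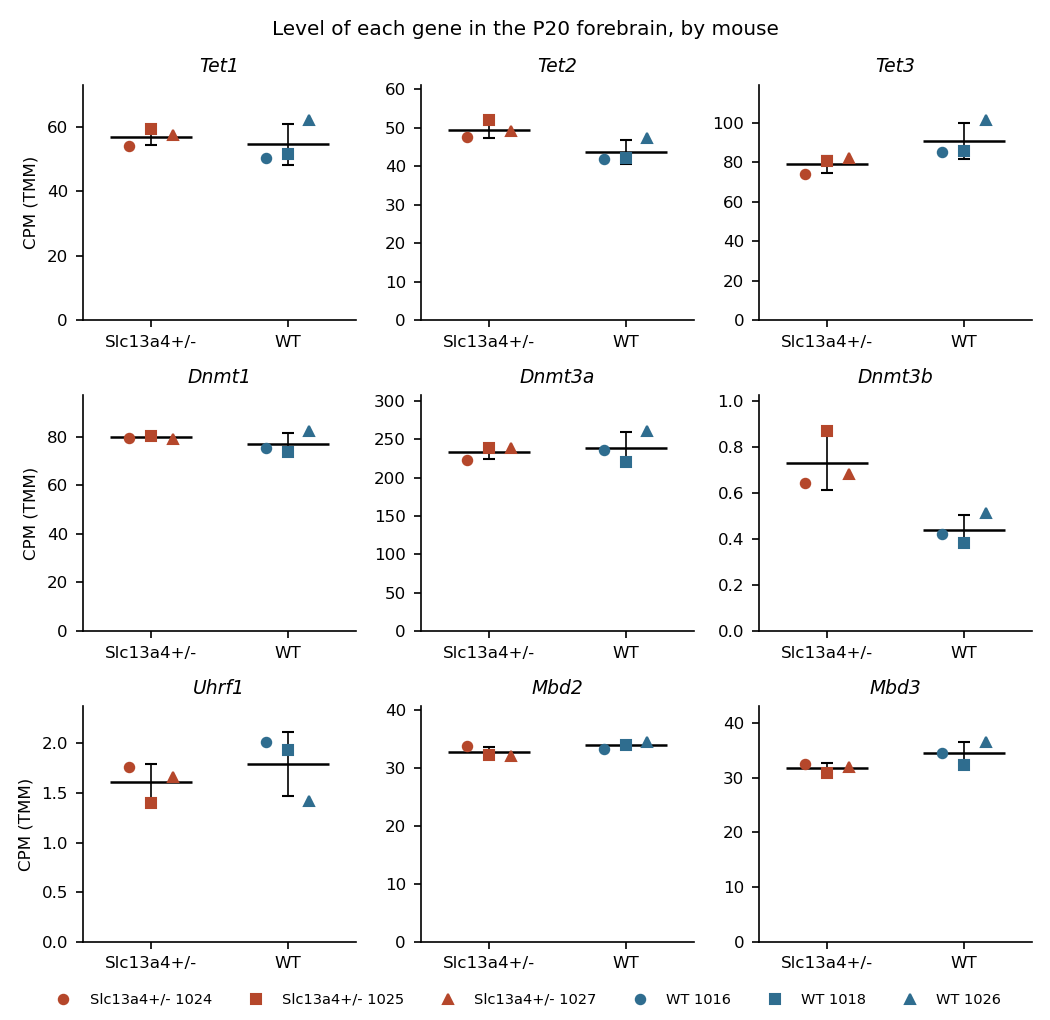
CPM of each of the 9 genes (y axes, from 0) in the P20 forebrain of *Slc13a4*+/- mice (left) and WT mice (right). Each point is a mouse, with the mean as a line and the SD of 3 mice as error bar. The groups are apart in *Tet2* and *Dnmt3b*, higher in *Slc13a4*+/- mice, and in *Tet3*, lower in *Slc13a4*+/- mice, and overlap in the other 6.

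At an adjusted p under 0.1, edgeR called 0 of the 9 genes, where it called 1 of 17096 genes in all (0.00585%). The DESeq2 Wald test with average transcript lengths as offsets called 1 of the 9, *Tet2* (higher), where it called 86 of 17659 genes (0.487%). At an unadjusted p under 0.05 in edgeR, 4 of the 9 passed, *Tet2* and *Dnmt3b* higher and *Tet3* and *Mbd3* lower, against 9.15% of all genes tested. The groups did not overlap in CPM in *Tet2* and *Dnmt3b* (every *Slc13a4*+/- mouse above every WT mouse, as in 7.26% of all genes) and in *Tet3* (every *Slc13a4*+/- mouse below, as in 7.7%). The contrast that chose the family also gave these counts, so nothing is read from them. The median log2 fold change of the 9 genes was -0.035, beside -0.005 over all genes tested. *Tet2* had log2 fold changes of 0.14 to 0.28 over the 14 alternative fits, and without WT mouse Nas2Del_WT_1026, edgeR called it at 0.24, where it called 223 of 17337 genes (1.29%).

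The 3 TET genes made up different parts of their sum in the 2 genotypes. *Tet2* made up 28.1%, 25.5% and 26.4% of the summed TET TPM in *Slc13a4*+/- mice, against 24.0%, 24.0% and 21.4% in WT mice. *Tet3* made up 27.9%, 29.2% and 31.5% in *Slc13a4*+/- mice, against 34.5%, 34.6% and 35.1% in WT mice. Neither set of values overlapped, with a mean difference of 3.55 percentage points for *Tet2* and -5.18 for *Tet3*, while *Tet1* overlapped at 43.8% ± 1.64 in *Slc13a4*+/- mice and 42.2% ± 1.17 in WT mice (SD, n = 3 each). Much of the *Tet1* TPM came from the short transcripts Tet1-202 (35.2%) and Tet1-208 (21.3%), so these are not shares of full-length transcripts. The ratio of *Tet2* to *Tet3* CPM was 0.641, 0.646 and 0.596 in *Slc13a4*+/- mice, against 0.491, 0.491 and 0.468 in WT mice, a difference of 0.38 on the log2 scale. WT mouse Nas2Del_WT_1026, which had the highest WT level of all 3 TET genes, lay with the other WT mice on this ratio. The ratio of *Tet1* to *Tet3* was 0.729, 0.738 and 0.700 in *Slc13a4*+/- mice, against 0.590, 0.600 and 0.613 in WT mice. Of the 17095 other genes tested, 42.1% had a ratio to *Tet3* that was higher in every *Slc13a4*+/- mouse than in any WT mouse, so these ratios carry the level of *Tet3* itself. The ratio of *Tet2* to *Tet1* CPM was also apart, at 0.880, 0.875 and 0.852 in *Slc13a4*+/- mice and 0.832, 0.818 and 0.764 in WT mice, but overlapped in TPM. How often shares within other gene families, or ratios of other gene pairs, are apart was not computed, so nothing is read from these.

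**Figure D3:**
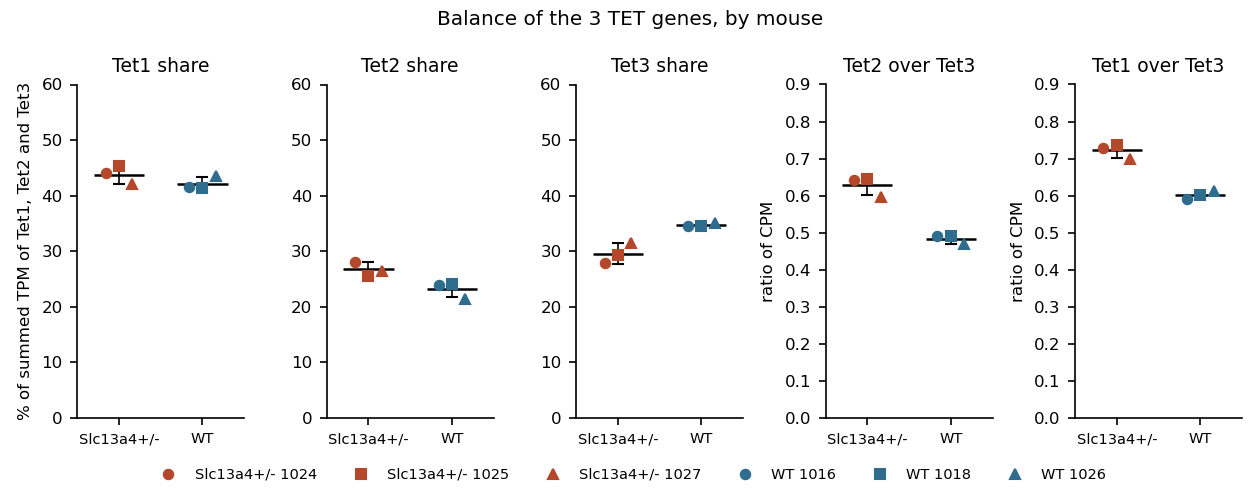
Share of each TET gene in the summed TPM of the 3 (left 3 panels, % on the y axis) and the ratios of *Tet2* and *Tet1* to *Tet3* in CPM (right panels), by mouse, with means and SD (n = 3 per genotype). The *Tet2* share and both ratios are higher, and the *Tet3* share lower, in every *Slc13a4*+/- mouse than in any WT mouse, while the *Tet1* shares overlap.

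The DNA methyltransferase genes expressed in mature brain barely differed. *Dnmt3a* (ENSMUSG00000020661, chr12:3806007-3914443, plus strand), the main de novo enzyme of postnatal neurons, had 223, 239 and 238 CPM in *Slc13a4*+/- mice, against 236, 220 and 261 CPM in WT mice. The groups overlapped (log2 fold change -0.035, SE 0.06), with WT mouse Nas2Del_WT_1026 the highest. *Dnmt1* (ENSMUSG00000004099, chr9:20907209-20959888, minus strand) had 79.4, 80.4 and 79.2 CPM in *Slc13a4*+/- mice, against 75.3, 73.7 and 82.2 CPM in WT mice. The 3 *Slc13a4*+/- values lay within the WT range (log2 fold change 0.05, SE 0.05).

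*Dnmt3b* (ENSMUSG00000027478, chr2:153649450-153687730, plus strand) had 50, 60 and 51 estimated counts in *Slc13a4*+/- mice, against 28, 23 and 40 in WT mice. These counts correspond to 0.644, 0.868 and 0.682 CPM in *Slc13a4*+/- mice and 0.421, 0.381 and 0.513 CPM in WT mice, which did not overlap. The log2 fold change of 0.73 (SE 0.21) was the largest of the 9 genes and rested on the fewest counts. In TPM the groups overlapped, at 0.396, 0.883 and 0.443 in *Slc13a4*+/- mice and 0.273, 0.197 and 0.431 in WT mice. *Slc13a4*+/- mouse Nas2Del_Het_1025 was highest on both scales.

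Within the DNMT family, *Dnmt3a* made up 66.5%, 66.7% and 66.6% of the summed TPM in *Slc13a4*+/- mice, against 68.6%, 68.6% and 68.9% in WT mice. *Dnmt1* made up 33.1%, 32.5% and 33.0% in *Slc13a4*+/- mice, against 31.2%, 31.2% and 30.8% in WT mice. Both sets were apart by little, with mean differences of -2.09 and 1.84 percentage points, and spread by at most 0.332 points (SD) within a genotype. The gap was not seen on every scale. The ratio of *Dnmt3a* to *Dnmt1* was lower in every *Slc13a4*+/- mouse in TPM (2.01, 2.05 and 2.02, against 2.20, 2.20 and 2.24 in WT mice) but overlapped in CPM (2.81, 2.97 and 3.01, against 3.14, 2.99 and 3.17 in WT mice). TPM depends on how Salmon, the program of the authors, shared reads among transcripts of unequal length. As for the TET genes, how often such shares are apart in other families was not computed.

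The reader genes overlapped between genotypes in CPM one by one. Their summed level was 64.4 to 68.0 CPM in *Slc13a4*+/- mice and 68.2 to 72.4 CPM in WT mice. These sums nearly met, at 67.98 and 68.16 CPM, and nothing is read from their being apart. *Uhrf1* (ENSMUSG00000001228, chr17:56303321-56323486, plus strand) had 1.76, 1.40 and 1.66 CPM in *Slc13a4*+/- mice, against 2.01, 1.94 and 1.42 CPM in WT mice. The groups overlapped, with *Slc13a4*+/- mouse Nas2Del_Het_1025 and WT mouse Nas2Del_WT_1026 lowest (log2 fold change -0.15, SE 0.17, but 0.005 in DESeq2 with length offsets). *Mbd2* (ENSMUSG00000024513, chr18:70568189-70626131, plus strand) had 33.7, 32.1 and 32.0 CPM in *Slc13a4*+/- mice, against 33.1, 33.9 and 34.4 CPM in WT mice. It had the lowest biological coefficient of variation of the 9 genes (3.98%) and overlapped in CPM (log2 fold change -0.05, SE 0.04), while in TPM its *Slc13a4*+/- values, 53.8, 53.2 and 54.2, lay below the WT values, 55.8, 56.5 and 57.7. *Mbd3* (ENSMUSG00000035478, chr10:80392539-80399550, minus strand) had 32.6, 30.8 and 32.1 CPM in *Slc13a4*+/- mice, against 34.6, 32.3 and 36.5 CPM in WT mice. Only WT mouse Nas2Del_WT_1018 fell among the *Slc13a4*+/- values (log2 fold change -0.12, SE 0.05). *Mbd2* and *Mbd3* kept equal shares of their summed TPM, with *Mbd2* at 50.4% ± 0.391 in *Slc13a4*+/- mice and 50.5% ± 1.03 in WT mice (SD, n = 3 each).

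The files listed 80 transcripts of the 9 genes, of which 54 are annotated as protein coding, 17 as retaining an intron, 5 as processed transcripts and 4 as targets of nonsense-mediated decay. At least 1 estimated count in a mouse was found for 66, and 14 were at 0 in every mouse. Shares are of the TPM of the gene, and since Salmon divides reads that match several transcripts by a model, shares of similar transcripts depend on each other. Apart from retained-intron transcripts, the share of all transcripts whose groups did not overlap was not computed. Nothing is therefore read from single transcripts that were apart. *Tet3* was estimated mainly as the transcript without the CXXC exon. This split depends on the annotation. Tet3-202 is annotated at 10904 bases and Tet3-203 at 5944, of which 5109 are shared. On the minus strand Tet3-203 ends at chr6:83368042 and Tet3-202 runs on to chr6:83362373. Reads from that further end can only be given to Tet3-202, whichever coding form they came from. Tet3-202 (coding sequence 5004 bases) had 82.7%, 77.4% and 80.2% in *Slc13a4*+/- mice and 83.5%, 81.1% and 82.1% in WT mice. Tet3-203, which has the exon (coding sequence 5409 bases), had 12.9%, 14.8% and 14.6% in *Slc13a4*+/- mice and 12.8%, 15.6% and 15.1% in WT mice. This split overlapped between genotypes and averaged 14.3% ± 1.19 (SD, n = 6) for Tet3-203. In CPM, Tet3-202 was lower in every *Slc13a4*+/- mouse (66.9, 70.4 and 73.2) than in any WT mouse (77.4, 76.4 and 90.9), while Tet3-203 overlapped at 5.61 to 7.27 in *Slc13a4*+/- mice and 6.38 to 8.99 in WT mice.

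*Tet2* was carried by Tet2-201, with 42.1, 39.6 and 43.3 CPM in *Slc13a4*+/- mice and 37.3, 37.0 and 41.9 CPM in WT mice. Tet2-204, with the 24-base stretch, was estimated above 0 only in *Slc13a4*+/- mouse Nas2Del_Het_1025 (378 counts) and WT mice Nas2Del_WT_1016 and Nas2Del_WT_1026 (57.3 and 76.3 counts). Both share 8997 bases, and their sum had 42.1, 45.1 and 43.3 CPM in *Slc13a4*+/- mice and 38.2, 37.0 and 42.8 CPM in WT mice. On this sum the groups overlapped, *Slc13a4*+/- mouse Nas2Del_Het_1024 lying just below WT mouse Nas2Del_WT_1026. The full-length transcripts made up 61.5%, 67.8% and 67.4% of *Tet2* TPM in *Slc13a4*+/- mice and 70.7%, 67.4% and 75.5% in WT mice. In *Slc13a4*+/- mouse Nas2Del_Het_1024, the 423-base transcript Tet2-205 took 17.6 counts but 10.9% of *Tet2* TPM, and it was at 0 in the other 5 mice. The mean transcript length of *Tet2* was 6258, 7029 and 6886 bases in *Slc13a4*+/- mice and 6993, 6911 and 7526 bases in WT mice, and the log2 fold change of *Tet2* was 0.26 with length offsets in edgeR and 0.18 without them.

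*Tet1* had a short processed transcript, Tet1-202 (1505 bases, no coding sequence), as its largest share at 35.2% ± 3.89 of TPM (SD, n = 6). The full-length coding transcripts Tet1-206 and Tet1-201 together held 29.2% ± 1.72. Their sum was steady, at 45.4, 50.5 and 50.5 CPM in *Slc13a4*+/- mice and 43.4, 44.7 and 52.7 CPM in WT mice. Within it, Tet1-201 ranged widely, at 8.03, 21.4 and 10.3 CPM in *Slc13a4*+/- mice and 19.1, 9.91 and 3.31 CPM in WT mice. Tet1-206 was low where Tet1-201 was high, at 37.4, 29.1 and 40.2 CPM in *Slc13a4*+/- mice and 24.3, 34.8 and 49.4 CPM in WT mice. The transcripts share 13979 bases, and both code for the CXXC finger.

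*Dnmt1* was mostly Dnmt1-201, whose first coding exon is that of somatic cells. This transcript (coding sequence 4860 bases) held 67.9%, 56.6% and 64.0% of TPM in *Slc13a4*+/- mice and 59.8%, 67.9% and 62.5% in WT mice. Transcripts with the shorter coding sequence of 4503 bases held 27.9%, 34.0% and 24.7% in *Slc13a4*+/- mice and 32.8%, 27.8% and 32.5% in WT mice. The genotypes overlapped in both. Dnmt1-201 and Dnmt1-202 share 5092 bases. *Dnmt3a* was mostly its long form, with Dnmt3a-201 and Dnmt3a-218 (coding sequence 2724 bases each) at 71.7%, 70.5% and 71.9% of TPM in *Slc13a4*+/- mice and 71.7%, 68.5% and 72.3% in WT mice. The short coding sequence of 2067 bases had 21.3 counts in *Slc13a4*+/- mouse Nas2Del_Het_1024 and 0 in the other 5 mice. Such a short form, made from an internal promoter, is known from embryonic stem cells. The fragment Dnmt3a-206 (827 bases) was the named coding transcript of *Dnmt3a* that did not overlap, at 1.72, 1.43 and 1.84 CPM in *Slc13a4*+/- mice, below 3.09, 2.66 and 2.05 CPM in WT mice.

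The counts of *Dnmt3b* and *Uhrf1* were split over changing transcripts. Coding sequences of *Dnmt3b* of 2517 bases or more had 36.0, 30.4 and 48.7 estimated counts in *Slc13a4*+/- mice, against 4.31, 4.27 and 0 in WT mice. Those of 2388 bases or fewer had 12.2, 21.4 and 0 counts in *Slc13a4*+/- mice, against 22.5, 18.7 and 36.8 in WT mice. The longer forms were thus apart and the shorter forms overlapped. The 3 *Slc13a4*+/- mice differed in which longer transcript took the counts, Dnmt3b-201 in mouse Nas2Del_Het_1024, Dnmt3b-207 in mouse Nas2Del_Het_1025 and Dnmt3b-209 in mouse Nas2Del_Het_1027. *Uhrf1* fell mainly on Uhrf1-201 in *Slc13a4*+/- mice Nas2Del_Het_1025 and Nas2Del_Het_1027 and WT mouse Nas2Del_WT_1026, and on Uhrf1-204 in *Slc13a4*+/- mouse Nas2Del_Het_1024 and WT mice Nas2Del_WT_1016 and Nas2Del_WT_1018, with coding sequences of the same length (2346 bases).

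*Mbd3* was split over 3 coding transcripts. Mbd3-204, which lacks the 96-base stretch, held 47.2%, 42.6% and 45.4% of TPM in *Slc13a4*+/- mice and 43.1%, 39.2% and 46.0% in WT mice. Mbd3-201, which has it, held 24.6%, 24.9% and 19.9% in *Slc13a4*+/- mice and 29.9%, 24.5% and 23.2% in WT mice. These shares overlapped. In CPM, Mbd3-201 was lower in every *Slc13a4*+/- mouse (9.37, 9.31 and 7.71) than in any WT mouse (11.9, 9.59 and 9.97), by as little as 0.217 CPM, and Mbd3-204 overlapped (14.9 to 16.8 in *Slc13a4*+/- mice and 14.4 to 18.5 in WT mice). The noncoding Mbd3-205 was higher in *Slc13a4*+/- mice, at 0.383, 0.715 and 0.458 CPM, against 0.167, 0.283 and 0.284 CPM in WT mice. *Mbd2* was mostly Mbd2-201, at 64.5%, 61.9% and 61.3% of TPM in *Slc13a4*+/- mice and 59.3%, 59.7% and 60.2% in WT mice, which did not overlap. Its CPM did, at 28.2 to 30.1 in *Slc13a4*+/- mice and 29.0 to 30.1 in WT mice.

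**Figure D4:**
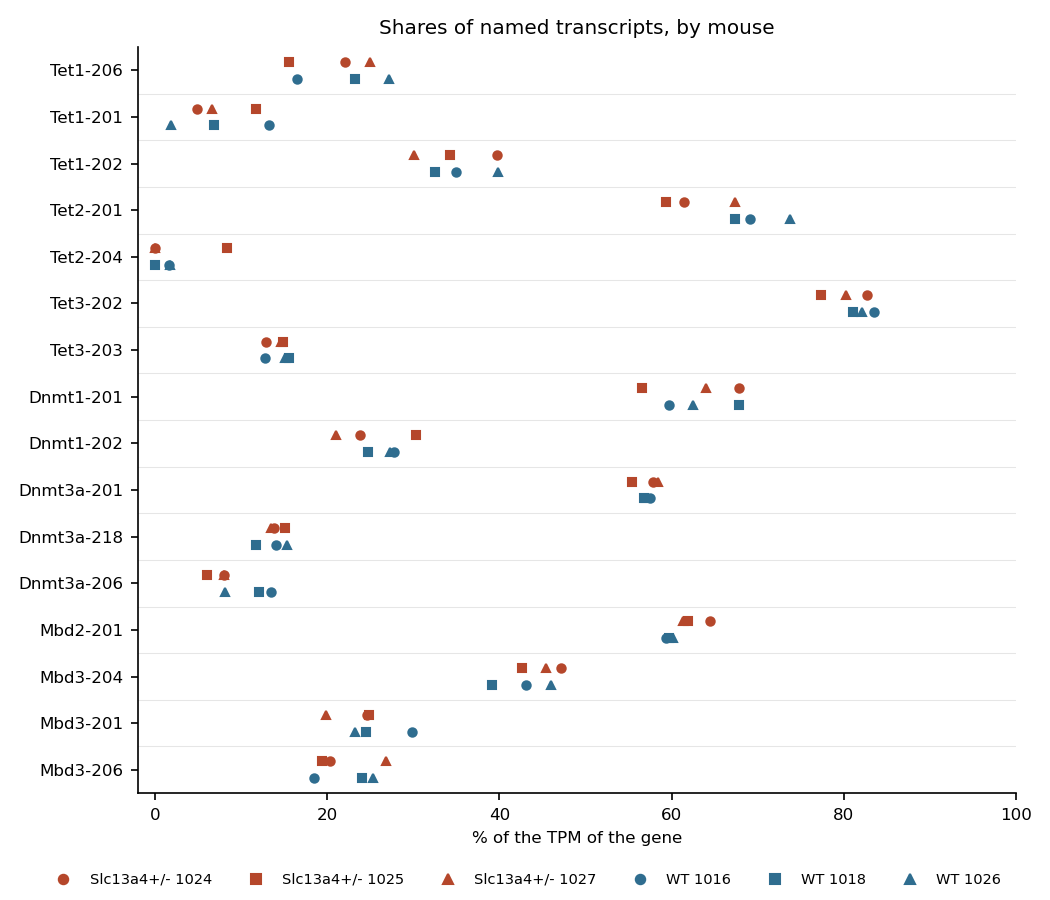
Share of named transcripts in the TPM of their gene (x axis, %) in each mouse, *Slc13a4*+/- mice above WT mice in each row. Tet3-202 holds 77.4% to 83.5% and Tet3-203 12.8% to 15.6% with overlapping genotypes, whereas the *Slc13a4*+/- mice lie right of the WT mice for Mbd2-201 and left of them for Dnmt3a-206. The share of all transcripts apart in this way was not computed.

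Transcripts annotated as retaining an intron, summed per gene, were higher in every *Slc13a4*+/- mouse than in any WT mouse for *Tet2*, *Tet3* and *Dnmt3a*, and so were those of all genes together. The groups overlapped for *Dnmt1*, *Dnmt3b*, *Uhrf1* and *Mbd2*, and *Tet1* and *Mbd3* had no such transcript. The share of all genes whose sums were apart in this way is not given here, so nothing is read from these sums. Of the 17 such transcripts, 10 had a mean of at least 10 estimated counts. Of those, 6 were higher in every *Slc13a4*+/- mouse than in any WT mouse, where 21.9% of 11983 retained-intron transcripts of all genes were, and 1 was lower, where 1.12% were. The mean of the *Slc13a4*+/- mice was above that of the WT mice in 9 of the 10, and in 83.5% of the 11983, whose median log2 ratio was 0.38. The 5 of *Tet2* together had 5.10, 6.82 and 5.62 CPM in *Slc13a4*+/- mice, against 3.55, 4.97 and 4.49 CPM in WT mice. They took 10.7%, 13.2% and 11.5% of *Tet2* counts in *Slc13a4*+/- mice and 8.49%, 11.8% and 9.48% in WT mice, which overlapped. Without retained-intron transcripts, the log2 fold change of *Tet2* was 0.155.

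Tet3-205 had 1.47, 2.27 and 1.73 CPM in *Slc13a4*+/- mice, against 1.35, 1.26 and 1.08 CPM in WT mice. It was higher in the *Slc13a4*+/- mice although *Tet3* as a whole was lower. The 3 of *Dnmt3a* summed to 1.56, 2.37 and 1.79 CPM in *Slc13a4*+/- mice, against 1.27, 1.21 and 1.17 CPM in WT mice. The one that was lower, Mbd2-204, had 2.55, 2.51 and 2.90 CPM in *Slc13a4*+/- mice, against 3.25, 2.96 and 2.98 CPM in WT mice, while Mbd2-205 of the same gene was higher, at 0.178, 0.253 and 0.210 CPM in *Slc13a4*+/- mice, against 0.101, 0.094 and 0.133 CPM in WT mice. *Slc13a4*+/- mouse Nas2Del_Het_1025 had the highest summed level for *Tet2*, *Tet3* and *Dnmt3a* and also the highest share of retained-intron counts over all genes. That share was 2.03%, 2.45% and 2.15% in *Slc13a4*+/- mice and 1.86%, 2.02% and 1.81% in WT mice. Over the 9 genes it was 2.06%, 2.63% and 2.33% in *Slc13a4*+/- mice and 1.83%, 2.01% and 1.66% in WT mice. The part of this transcriptome-wide difference in the values of single genes was not tested.

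**Figure D5:**
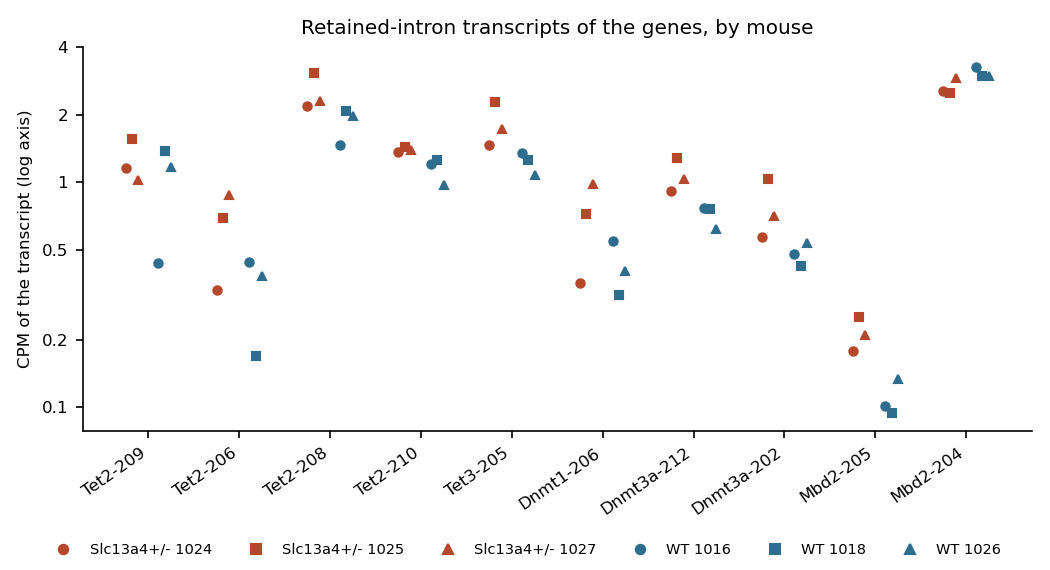
CPM (log y axis) of the 10 retained-intron transcripts of the 9 genes with a mean of at least 10 estimated counts, by mouse, *Slc13a4*+/- mice left of WT mice. Of the 10, 6 are higher in every *Slc13a4*+/- mouse, and Mbd2-204 is lower.

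The wider machinery of cytosine methylation showed no called change in the fits to all 6 mice. Lists of 64 other genes were followed, of which 62 passed the filter on low counts (not *Dnmt3l* and *Dppa3*). At an adjusted p under 0.1, edgeR called 0 of the 62 and DESeq2 with length offsets 0. At an unadjusted p under 0.05 in edgeR, 6 were higher and 5 lower, where 9.15% of all genes passed in either direction. In 4 every *Slc13a4*+/- mouse lay above every WT mouse (7.26% of all genes), and in 5 below (7.7% of all genes). The median log2 fold change was 0.01, beside -0.005 over all genes tested.

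Among 9 other methyl-CpG binding proteins, the smallest p belonged to *Zbtb33* and *Uhrf2*. *Zbtb33*, which encodes the methyl-CpG binding zinc finger protein Kaiso, had 23.2, 23.3 and 22.4 CPM in *Slc13a4*+/- mice, against 25.2, 23.7 and 26.5 CPM in WT mice (log2 fold change -0.13, SE 0.05, edgeR adjusted p = 0.517). *Uhrf2*, the paralog of *Uhrf1*, had 63.8, 66.2 and 64.8 CPM in *Slc13a4*+/- mice, against 71.6, 72.3 and 66.9 CPM in WT mice (log2 fold change -0.11, SE 0.04, edgeR adjusted p = 0.518). In neither gene did the groups overlap. Among 17 genes of base excision and TET cofactors, *Ogt*, whose O-GlcNAc transferase binds TET proteins, had 221, 235 and 237 CPM in *Slc13a4*+/- mice, against 203, 214 and 208 CPM in WT mice (log2 fold change 0.15, SE 0.04, edgeR adjusted p = 0.499). *Cxxc5*, a CXXC finger gene related to *Cxxc4*, had 51.2, 50.7 and 50.5 CPM in *Slc13a4*+/- mice, against 55.1, 53.5 and 54.8 CPM in WT mice (log2 fold change -0.10, SE 0.03, edgeR adjusted p = 0.502).

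Among 11 tested partners of the methyltransferases, *Trdmt1*, a homologue that methylates tRNA, had 5.87, 5.09 and 4.92 CPM in *Slc13a4*+/- mice, against 4.66, 4.33 and 4.68 CPM in WT mice (log2 fold change 0.22). *Cdca7*, partner of the remodeller HELLS, overlapped, at 4.42, 3.93 and 4.34 CPM in *Slc13a4*+/- mice and 3.14, 3.95 and 3.62 CPM in WT mice. Among 12 NuRD subunits, *Mta2* had 42.2, 41.5 and 43.3 CPM in *Slc13a4*+/- mice, against 48.9, 46.3 and 44.7 CPM in WT mice (log2 fold change -0.14), while *Gatad2a* overlapped (log2 fold change -0.085). Among 13 genes of methyl donor supply, *Mat2a*, the synthase of S-adenosylmethionine, had 137, 135 and 141 CPM in *Slc13a4*+/- mice, against 124, 136 and 118 CPM in WT mice, so that the groups overlapped. In edgeR none of these 5 passed the threshold, with adjusted p between 0.499 and 0.616. Without WT mouse Nas2Del_WT_1026, a setting chosen after seeing the data, DESeq2 with length offsets called 8 of the list genes, where it called 720 of 11013 genes (6.54%), and among the 8 *Zbtb38*, *Ogt*, *Usp7*, *Ehmt1*, *Chd4* and *Gatad2b* were higher and *Mta2* was lower.

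Genes whose levels followed *Tet2* most closely over the 6 mice were sought among 4826 tested genes of similar mean level, by the root mean square difference of log2 CPM after centring each gene. The 3 nearest were *Cd2ap* (0.018), *Dicer1* (0.022) and *Ncapd3* (0.024). *Cd2ap*, an adaptor of the actin cytoskeleton, had 28.6, 31.0 and 29.3 CPM in *Slc13a4*+/- mice and 25.1, 25.6 and 27.7 CPM in WT mice, with mouse Nas2Del_Het_1025 highest among the *Slc13a4*+/- mice and mouse Nas2Del_WT_1026 among the WT mice, as in *Tet2*. *Dicer1*, the enzyme that cuts microRNA precursors, had 81.8, 86.1 and 82.2 CPM in *Slc13a4*+/- mice and 70.9, 72.4 and 81.7 CPM in WT mice. In the same pool *Tet1* was at 0.069 (rank 218) and *Tet3* at 0.193 (rank 4611). The likeness is a description over 6 mice of 2 genotypes.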

How the data were processed

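RNA-Seq libraries from 6 mice (3 per genotype) were quantified by the authors with Salmon 1.2.0, which the submitters' processing notes name, with mapping validation and GC bias correction. The authors deposited, per transcript, estimated counts, which need not be whole, TPM values, which correct for transcript length and add up to 1000000 per mouse, and effective lengths. The transcript set and build behind the index were not given in the sources used here. Identifiers were matched to GENCODE M21 (GRCm38), and 1162 unmatched transcripts (0.620% to 0.645% of counts) were left out. Estimated counts were added up over the transcripts of a gene and rounded. The genotypes were compared over 17096 genes with the quasi-likelihood test of edgeR 4.0.16 (R 4.3.3, TMM normalization, default filter on low counts, Benjamini-Hochberg adjusted p, threshold 0.1 as in the paper). DESeq2 1.42.0 with average transcript lengths as offsets was the main alternative. Totals of 60340337 to 80410582 counts limit the precision of genes and transcripts with few counts, and shares of counts have no interval beyond the spread between mice.

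The 9 genes, the lists and the rules were chosen with earlier results of these data known. Named were the 9 genes, *Slc13a4*, the 2 genes of each list with the smallest edgeR p, the 5 genes most like *Tet2*, transcripts with at least 5% of the TPM of their gene in any mouse, of which some are printed, and retained-intron transcripts. Not every gene these rules name is reported here. *Ddx3y*, the markers given by name and the genes called without WT mouse Nas2Del_WT_1026 were named after their values were seen. Alternatives were other offsets, normalizations and filters, no retained-intron transcripts, protein-coding transcripts alone, shares of counts, and leaving out each mouse. Tables and plots were made with Python 3.11.15.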

Additional observations from a re-analysis of the deposited data

How the results depend on the processing

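The log2 fold changes of the 9 genes were refitted under 14 alternatives each. Of 126 values, 118 moved by less than the spread between mice, 8 moved by more, and 5 had the other sign (3 of *Dnmt3a* and 2 of *Uhrf1*, both overlapping between genotypes). *Tet2* stayed between 0.14 and 0.28, *Tet3* between -0.24 and -0.10, and *Dnmt3b* between 0.59 and 1.24. At an adjusted p under 0.1, the count of the 9 genes called was 0 in edgeR. It was 1 in DESeq2 with length offsets (*Tet2*), 0 to 1 when edgeR left out each mouse in turn (1, *Tet2*, without WT mouse Nas2Del_WT_1026, where 1.29% of all genes were called), and 2 (*Tet1* and *Tet2*) in DESeq2 with length offsets without WT mouse Nas2Del_WT_1026, a setting chosen after seeing the data that called 6.54% of all genes. The other alternatives called 0. Of the 62 pathway genes, that last setting called 8 and every other alternative 0. The causes were not tested. The mean gain of *Tet2* in the TET share, 3.55 points, lay between 2.70 and 4.14 under every alternative. The share of Tet3-203 in *Tet3*, 14.3%, was 8.50% when counted in estimated counts, which weigh transcripts by length, and 14.0% to 14.6% without each mouse. No paired analysis was possible because each mouse has its own animal number and its litter was not given in the sources used here. Few counts limit *Dnmt3b*, *Uhrf1* and transcripts that share most of their bases.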
